A study of Mus musculus with 92 samples.

Results

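The cytosolic ribosome of the mouse is built from ribosomal RNA and ribosomal proteins, and the mRNAs of the ribosomal protein genes were followed here across all libraries of the series. The set was chosen by name alone: protein-coding rows whose symbol starts with Rpl or Rps and a digit, plus Rpsa, Rplp0, Rplp1 and Rplp2, without the Rps6k kinases. It held 94 of the 54532 rows of each of the 4 count tables. By role, 31 rows are proteins of the small subunit, 43 of the large subunit and 3 of the P stalk, which together make 77 structural members. A further 8 are paralogs or variants (Rpl3l, Rpl7l1, Rpl10l, Rpl22l1, Rpl36al, Rpl39l, Rps27l and Rps27rt). The last 9 carry a matching name without being known ribosomal proteins: Rps19bp1, a nucleolar protein that binds one, and 8 rows named as pseudogenes but annotated as coding.

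The study deleted Eif4g2, which encodes a translation initiation factor of the eIF4G family, from mouse intestine, using the tamoxifen-dependent recombinase CreER and an allele flanked by loxP sites (flox). Rosa26(CreER) acts in all cell types and Vil1(CreER) in the intestinal epithelium. Rosa26(CreER) mice treated with tamoxifen were sampled at day 9: crypts came from 4 Eif4g2(flox/flox) (homozygous) and 5 Eif4g2(flox/+) (heterozygous) libraries, villi from 5 of each. Vil1(CreER) mice given tamoxifen at 100 mg/kg daily for 4 days were sampled at 3 months, with 3 crypt and 6 villus libraries for homozygotes and 4 of either tissue for heterozygotes. The heterozygous controls thus carry one deleted copy, and the age of the animals is not given. Adult small intestinal organoids, all Rosa26(CreER), came as a first set of Eif4g2(flox/flox) lines with DMSO or 0.5 µM 4-hydroxytamoxifen (4-OHT) for 24 h (3 libraries each) and a second set with 4-OHT only, of flox/flox, flox/+ and Eif4g2(+/+) lines (4 each, the last called CreER-only). Fetal intestinal spheroids, also Rosa26(CreER), came as 6 flox/flox and 5 flox/+ lines, each with DMSO and with 4-OHT; organoids and spheroids of these sets were collected on day 6. Another organoid experiment used DMSO or A-485, an inhibitor of the acetyltransferases p300 and CBP, at 3, 5 or 10 µM for 4 days (4 libraries each); its line 1 is Eif4g2(+/+) and the other 3 are flox/flox lines that did not receive 4-OHT. The libraries are taken as separate animals or lines by their names, and where lines are siblings or clones is not given.

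Ribosomal proteins are made in equal numbers, one of each per ribosome, apart from the P stalk, where Rplp0 anchors copies of the dimer-forming Rplp1 and Rplp2 and recruits translation factors. Their mRNAs usually begin with a run of pyrimidines, the terminal oligopyrimidine (TOP) tract, through which mTOR signalling and Larp1 control their translation, and their promoters are transcribed by RNA polymerase II with help of Myc and of ETS-family factors. In the intestine, dividing cells at the base of the crypt make ribosomes for growth, and cells that move up the villus as enterocytes stop dividing.

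Sequences at the annotated start sites were searched for such a pyrimidine run, and are given for a few members. Of the 94 rows, 66 matched a RefSeq promoter (GRCm38.p6), 57 of them structural. A run of 7 or more pyrimidines within 10 bases of the annotated start was present in 28 of these 57 (49.1%), against 19.5% of all 27025 promoters in the table, and a run of 10 or more in 19 (33.3%, against 6.83%). The letters CCGGAAG, a core recognised by ETS-family factors, occurred on either strand of the 300-base promoter of 23 of the 57 (40.4%), against 9.12% of all. The E-box CACGTG, the Myc-type letters, occurred in 5 (8.77%, against 7.24%). The stretches below cover 25 bases before and 15 after the RefSeq start, 5′ to 3′, with a pyrimidine run near the start in capitals.
Rpl13a: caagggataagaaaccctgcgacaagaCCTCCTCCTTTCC
Rps6: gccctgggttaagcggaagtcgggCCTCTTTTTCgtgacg
Rps27: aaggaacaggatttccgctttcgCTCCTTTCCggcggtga
Rpl22l1: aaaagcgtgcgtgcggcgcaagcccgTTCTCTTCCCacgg
Rps27l: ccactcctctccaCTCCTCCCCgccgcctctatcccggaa
They lie at chr7:45128731-45128770 on the minus strand (Rpl13a), chr4:86857353-86857392, minus (Rps6), chr3:90213634-90213673, minus (Rps27), chr3:28805483-28805522, plus (Rpl22l1) and chr9:66946061-66946100, plus (Rps27l). In Rps27, the run begins 2 bases before the annotated start. In its paralog Rps27l the run of 9 begins 12 bases before the start and ends before it. That run thus lies outside the annotated mRNA and is not a TOP tract by this annotation. The runs of Rpl22l1 and Rpl13a begin 1 and 2 bases after the annotated start, behind purines. By this annotation these 2 mRNAs do not begin with the run. The counts above rest on nearness to the annotated start, so they are not counts of TOP tracts.

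Coding sequence shows which members can be told apart by reads. Rps27, Rps27rt and Rps27l each have a coding sequence of 252 bases in GENCODE vM21, and the first 90 bases follow, with capitals where the base differs from Rps27.
Rps27: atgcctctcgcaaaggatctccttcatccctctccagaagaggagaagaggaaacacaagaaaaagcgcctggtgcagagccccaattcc
Rps27rt: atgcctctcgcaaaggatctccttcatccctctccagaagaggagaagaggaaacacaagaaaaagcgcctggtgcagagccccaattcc
Rps27l: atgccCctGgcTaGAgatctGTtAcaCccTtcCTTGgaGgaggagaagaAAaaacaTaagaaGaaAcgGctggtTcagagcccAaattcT
Rps27 and Rps27rt did not differ at any of the 252 bases, so their separate counts are uncertain. Rps27l differed from Rps27 at 60 of them, and none of the 100-base windows of its transcript was found in another annotated gene. The same share, counted over 100-base windows of the reference transcript, was 98.4% for Rps27, 89.5% for Rps27rt, 87.1% for Rpl10a, 77.1% for Rpl17, 46.3% for Rpl38, 40.6% for Rpl22l1, 18.3% for Rplp0, 2.23% for Rpl7l1 and 0 for Rpl22.

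The 92 libraries held, in units of 1000000 counted reads, 8.65 to 37.6 (median 23.5), and the members took 0.328 to 9.42% of them. Eif4g2 itself was lower in every comparison of homozygous or flox/flox deletion with its control, with log2 fold changes from -2.82 to -0.99. Rows of ribosomal protein pseudogenes, 384 in number and partly able to catch the same reads, held 0.0107 to 0.296% of the reads. Of the 94 members, 85 to 88 passed the filter on low counts in each fit. Rpl9-ps1, Rpl10l, Rpl36-ps4, Rpl13a-ps1, Rpl39l and Rpl3l never passed it, with at most 6 reads in any library, so the tissue-restricted paralogs Rpl3l, Rpl10l and Rpl39l are near or at 0 in all groups. Levels below are CPM, counts per 1000000 reads of the library after TMM scaling within an experiment, and are not comparable between experiments. Fold changes are log2 values with standard error (SE) from edgeR's quasi-likelihood test, and called means an adjusted p under 0.05 over all genes tested.

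Per length, 2 of the 3 P stalk genes led, with length taken as the gene length deposited with the counts. The mean CPM per kb of Rplp1 and Rplp0 ranked between 1 and 4 among the 77 structural members in all 21 groups, and Rps3a1 between 1 and 6. Rplp2, the other P stalk member, ranked between 33 and 69. Its deposited gene length is 2072 bases and its reference transcript 421 bases. These lengths are 499 and 499 for Rplp1 and 1659 and 1358 for Rplp0. The rank of Rplp2 thus depends on the length used and does not show a low mRNA. Rps10 and Rpl24 shared the last 2 ranks in all groups; in their reference transcripts most 100-base windows are found in other genes (80.1% for Rpl24), so a low count there does not show a low mRNA.

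**Figure D1:**
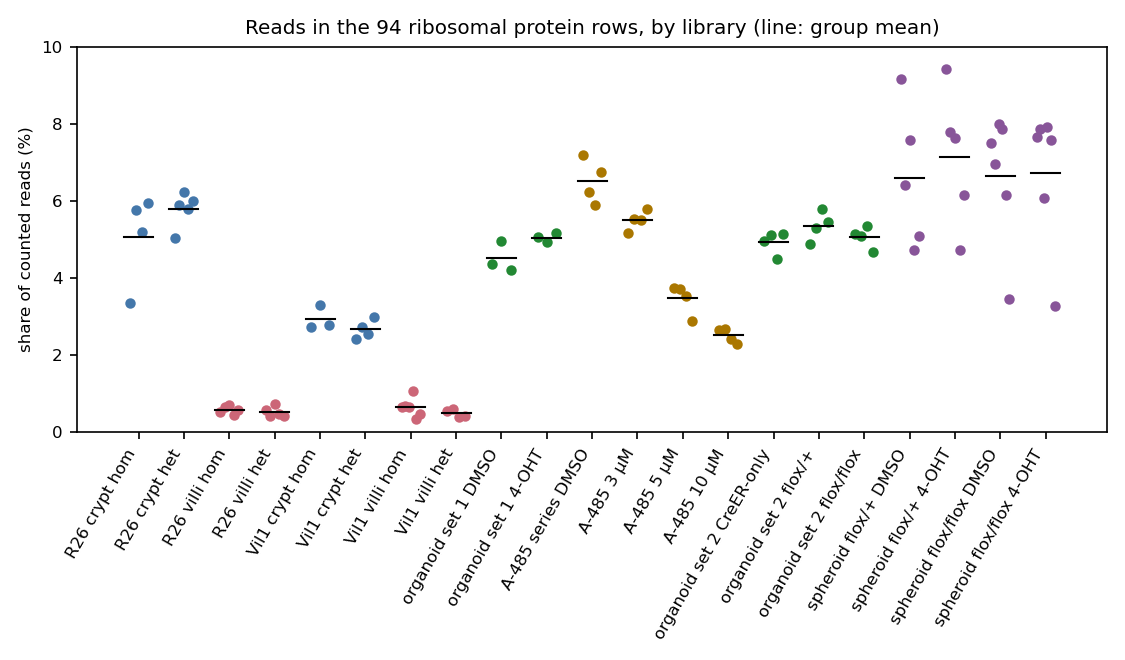
Share of counted reads (%, vertical axis) that fell on the 94 ribosomal protein rows, for each of the 92 libraries (points) in the 21 groups (horizontal axis), with the group mean as a line. All villus libraries lie at or under 1.05%, all crypt libraries between 2.42 and 6.23%, and the A-485 groups step down from DMSO (5.90 to 7.18%) to 10 µM (2.28 to 2.69%).

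Crypts held far more ribosomal protein mRNA than villi. In heterozygous Rosa26(CreER) mice, members took 5.03, 5.80, 5.90, 6.00 and 6.23% of the reads of the 5 crypt libraries and 0.409, 0.418, 0.479, 0.574 and 0.717% of the 5 villus libraries. All 77 structural members were higher in crypts, and 86 of 88 tested members rose and none fell, with a median log2 fold change of 2.45 (all genes: 0.09); 40.6% of all 14793 genes were higher. In heterozygous Vil1(CreER) mice, 2.42 to 2.98% of crypt reads and 0.403 to 0.586% of villus reads were on members. Here 81 of 87 were higher, against 35.2% of all 15757 genes, and 1 was lower, with a median of 1.70. Markers of other cell states moved in parallel: the summed CPM of 5 enterocyte markers was 708 to 1257 in heterozygous Rosa26(CreER) crypts and 27914 to 41715 in villi, and that of 3 cycling markers 565 to 713 and 59.3 to 78.0. In bulk tissue, a change in cell make-up and a change in mRNA per cell cannot be told apart.

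The largest differences were for Rpl17, Rpl12 and Rps27a. Rpl12, a protein of the stalk base, had 557, 586, 600, 627 and 689 CPM in heterozygous Rosa26(CreER) crypts and 32.4, 37.4, 43.9, 51.1 and 104 in villi. The groups did not overlap, at a log2 fold change of 3.49 (SE 0.31, adjusted p = 6.5e-07 by edgeR). Rpl17, of the large subunit, differed by 3.52 (SE 0.22) in these mice and by 2.87 (SE 0.15) in Vil1(CreER) mice, without overlap in either. Rps27a, made as a fusion with ubiquitin, had 134, 140, 158 and 172 CPM in Vil1(CreER) crypts and 16.3, 19.3, 24.5 and 26.6 in villi, a difference of 2.85 (SE 0.17). Rplp0 had 1980, 2053, 2054, 2124 and 2311 CPM in Rosa26(CreER) crypts and 220, 240, 280, 306 and 428 in villi (2.82, SE 0.18).

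Rps27l differed in pattern from its paralog Rps27, a difference between genes that was not tested. Rps27 had 170, 182, 194, 202 and 212 CPM in heterozygous Rosa26(CreER) crypts against 18.1, 19.9, 34.1, 40.3 and 50.9 in villi, higher by 2.54 (SE 0.26, adjusted p = 2.7e-06 by edgeR). Rps27l had 70.4, 70.6, 71.7, 72.0 and 73.2 CPM in the same crypts and 52.3, 60.6, 65.6, 67.7 and 74.6 in villi; the groups overlapped, and the difference of 0.15 (SE 0.09) was not called. In Vil1(CreER) mice Rps27l was the 1 member that fell in crypts, by 0.77 on the log2 scale (SE 0.21, adjusted p = 0.0075 by edgeR), from 48.8, 69.1, 78.6 and 95.2 CPM in villi to 32.2, 35.2, 48.2 and 49.0.

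**Figure D2:**
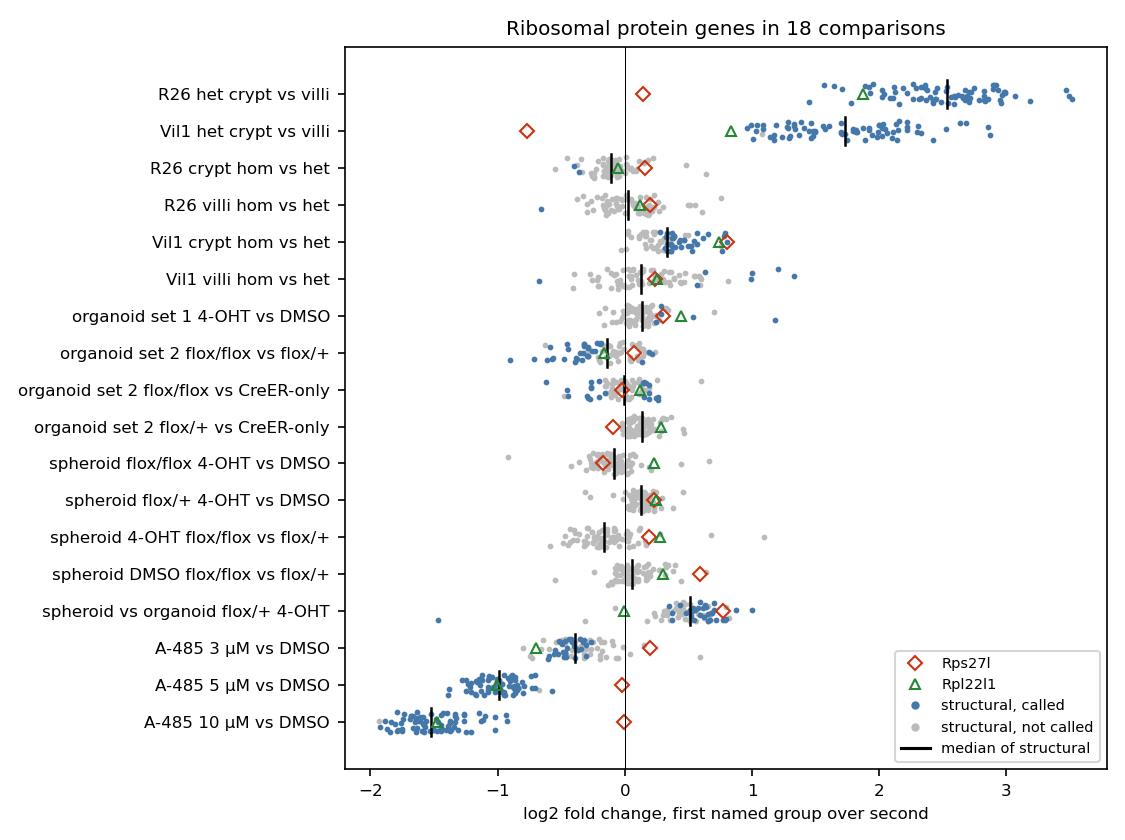
Log2 fold change (horizontal axis, first named group over second) of each structural member in 18 comparisons (rows), blue where called at adjusted p under 0.05 by edgeR and grey where not, with the median as a black bar and the paralogs Rps27l and Rpl22l1 as open symbols. Medians run from -1.53 with A-485 at 10 µM to 2.54 for crypt over villus in Rosa26(CreER) mice, and Rps27l lies apart from the median at both ends.

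After homozygous deletion of Eif4g2 by Rosa26(CreER), few ribosomal protein mRNAs were called. In crypts, 2 of 88 tested members fell and none rose, although 20.2% of all genes were called. Rps26, at the mRNA exit of the small subunit, had 372, 441, 446 and 516 CPM in homozygous and 564, 583, 598, 619 and 664 in heterozygous crypts, lower by 0.40 (log2 fold change -0.40, SE 0.10, adjusted p = 0.025 by edgeR). Rpl28 had 336, 381, 382 and 462 against 470, 504, 524, 533 and 561 CPM (-0.36, SE 0.10, adjusted p = 0.032). Neither pair of groups overlapped, but the adjusted p reached 0.093 for Rps26 and 0.12 for Rpl28 when single libraries were left out. The median over members was -0.11 (all genes: 0.04). Y-linked transcripts were present in all 5 heterozygous and in 1 of 4 homozygous crypt libraries, so sex and genotype are largely confounded here. With the presence of these transcripts as a covariate 17 members fell (8.94% of all genes). Leaving out single libraries gave 0 to 4 calls: none without homozygous replicate 4 or heterozygous replicate 2, 3 or 5, 1 without homozygous replicate 3 or heterozygous replicate 4, and 4 without homozygous replicate 5. The share of mitochondrial reads was 13.7 to 25.2% in homozygous and 6.24 to 12.4% in heterozygous crypts. The summed CPM of 5 stem cell markers was 201 to 854 and 3826 to 6539, with 4 of the 5 called lower. The part of these values in the result was not tested.

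In the villi of these mice, 1 of 85 members was called, against 33.2% of all genes. Rpl21 had 7.21, 9.03, 9.79, 10.4 and 10.5 CPM in homozygous and 8.85, 10.4, 16.0, 17.9 and 18.2 in heterozygous villi, a change of -0.66 (SE 0.21, adjusted p = 0.033 by edgeR) with overlap. Without heterozygous replicate 3, 18 members rose and none fell. The share of all genes that rose in that fit is not given, and was 15% with all libraries. Without homozygous replicate 2 or 3 none was called. There were 2 calls without heterozygous replicate 2 and 3 without homozygous replicate 5. Without homozygous replicate 4 or heterozygous replicate 1 the 1 call was a member that was higher, so Rpl21 was not called. Y-linked transcripts were present in all 5 heterozygous and in 2 of 5 homozygous villus libraries, and with their presence as a covariate 0 members were called by edgeR (0 at an unadjusted p under 0.05; 21.8% of all genes were called). Heterozygous replicate 3 had the highest member share of its group, 0.717%, and a mitochondrial share of 24.5%, against 2.74 to 9.63% in the other heterozygous villi. The effect of deletion differed between crypts and villi for 1 of 88 members, Rps2 (-0.82, SE 0.26, adjusted p = 0.046 by edgeR), while 11.5% of all genes differed. With animals as a block none was called (4.71% of all genes). Without heterozygous villus replicate 3, 13 were, without homozygous crypt replicate 5, 2 were, and the call was lost without most other single libraries.

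Deletion by Vil1(CreER) at 3 months went with higher ribosomal protein mRNA in crypts. Members took 2.73, 2.79 and 3.31% of the reads of homozygous crypts and 2.42, 2.55, 2.72 and 2.98% of heterozygous ones. Of 88 tested members 38 rose and none fell, against 11.6% of all genes that rose, and 76 of 77 structural members had a positive fold change, with a median over members of 0.33 (all genes: 0.01). All 3 P stalk members rose, as did 18 of 31 small subunit and 14 of 43 large subunit members. The count fell to 16 without homozygous replicate 1, 20 without homozygous replicate 3, 21 without heterozygous replicate 1 and 23 without homozygous replicate 2.

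Of the 5 paralogs tested, 3 rose: Rps27l, Rpl22l1 and, by 0.30 (SE 0.08), Rpl7l1. Rps27l had 69.9, 71.8 and 73.9 CPM in homozygous and 32.2, 35.2, 48.2 and 49.0 in heterozygous crypts, a rise of 0.81 (SE 0.15, adjusted p = 0.0061 by edgeR) without overlap. Rpl22l1, the paralog of Rpl22, had 58.9, 62.6 and 63.5 against 31.0, 37.8, 38.8 and 39.9 CPM (0.74, SE 0.10, adjusted p = 0.0011). Rpl22 itself had 134, 139 and 143 against 122, 129, 144 and 151 CPM and was not called (0.02, SE 0.09). Rps12, of the small subunit, rose by 0.80 (SE 0.13), from 77.4, 83.3, 99.0 and 104 to 144, 148 and 182 CPM; 88.9% of its 100-base windows are shared. Rplp1 rose by 0.77 (SE 0.13) and Rplp2 by 0.57 (SE 0.12). Values that moved with these include the mitochondrial share, 30.4 to 40.3% in homozygous and 17.5 to 30.8% in heterozygous crypts, and summed CPM of 5 stem cell markers (284 to 523 and 4885 to 5457), 3 cycling markers (583 to 712 and 871 to 1077) and 2 erythroid markers (237 to 411 and 84.1 to 235). The summed CPM of 5 enterocyte markers was 294 to 683 in homozygous and 740 to 1869 in heterozygous crypts. That of 3 Paneth cell markers was 304 to 763 and 2536 to 5427. Neither pair overlapped, and 3 of the 5 and 3 of the 3 were called lower. Of the other lists, 3 of the 5 stem cell, 2 of the 3 cycling and 0 of the 2 erythroid markers were called. The stem cell markers Axin2 (127 to 144 in homozygous and 128 to 148 CPM in heterozygous crypts) and Ascl2 (7.94 to 10.9 and 9.75 to 14.7) overlapped. The summed stem cell value thus does not stand for each marker. The part of these values in the result was not tested.

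In Vil1(CreER) villi the libraries overlapped for all members. Of 85 tested, 6 rose and 2 fell, against 42.5% of all genes called. Rps27a (1.21) was among the risers; Rpl24 (1.33) and Rps10 (1.00), which also rose, stood at 7.61 CPM or less in every library, and with pseudogene counts added to their parent genes Rps10 was at -0.08. Rpl38 fell by 0.67 on the log2 scale (SE 0.19, adjusted p = 0.013 by edgeR), with 11.2, 14.7 and 20.4 CPM as lowest, median and highest of 6 homozygous libraries and 16.1, 23.7, 29.0 and 29.2 in heterozygotes. Rps27rt fell by 1.32 (SE 0.38), but its reads cannot be separated from those of Rps27. Leaving out single libraries gave 4 to 14 calls: 14 without homozygous replicate 5, 4 without heterozygous replicate 4 or homozygous replicate 2, and 5 without heterozygous replicate 1 or homozygous replicate 1, 3 or 4. The effect of deletion differed between crypts and villi for 1 member, Rpl38 (0.97, SE 0.27, adjusted p = 0.024 by edgeR), among 15.5% of all genes. With animals as a block 2 members were called, both lower (7.83% of all genes). No member was called without crypt heterozygous replicate 1, crypt homozygous replicate 1 or villus heterozygous replicate 1, and 2 were without villus heterozygous replicate 4. Without crypt homozygous replicate 2 the 1 call was a member with a lower value, so Rpl38 was not called.

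In the first organoid set, deletion was followed by a rise of 6 of 88 members and no fall, against 18.2% of all genes that rose. Member share was 4.92, 5.07 and 5.16% with 4-OHT and 4.21, 4.36 and 4.96% with DMSO. Rpl17 had 243, 247 and 250 CPM with 4-OHT and 80.2, 82.4 and 164 with DMSO (1.18, SE 0.27, adjusted p = 0.014 by edgeR). Rpl13a rose by 0.53 (SE 0.14), Rpl22l1 by 0.44 (SE 0.11), from 62.1, 62.1 and 72.2 to 82.3, 82.6 and 102 CPM, and Rplp1 by 0.25 (SE 0.08), whose call was lost without any single library (adjusted p from 0.064 to 0.17 by edgeR). Rpl9 and Rpl14 (0.28 each) were the other two. The count was 1 without DMSO replicate 1 or 3, and 2 and 3 without 4-OHT replicate 1 and 2. The summed CPM of the stem cell markers was 198 to 254 with 4-OHT and 1166 to 1636 with DMSO, and that of the enterocyte markers 2522 to 4120 and 7845 to 10385; their part in the result was not tested.

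The second organoid set, from other lines, showed another pattern. Against flox/+ organoids, 31 of 88 members fell in flox/flox organoids and 3 rose; 24.3% of all genes fell and 22.6% rose. Against CreER-only organoids 13 fell and 11 rose (23.5 and 21.9% of all genes). The flox/flox libraries serve in both comparisons, so these are not independent. Member shares were 4.68, 5.09, 5.15 and 5.36% in flox/flox, 4.89, 5.31, 5.45 and 5.78% in flox/+ and 4.48, 4.96, 5.11 and 5.15% in CreER-only organoids, and these ranges overlap. The median fold changes were -0.14 and -0.01. Against CreER-only the calls numbered 12 to 15 without flox/flox replicate 1 or 2 or CreER-only replicate 1 or 2. The summed CPM of the stem cell markers was 1475 to 2327 in flox/flox, 5425 to 7354 in flox/+ and 5805 to 7448 in CreER-only organoids, and its part in the result was not tested.

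Rpl38 (chr11:114668524-114672331, plus strand, GRCm38), a small protein of the large subunit known for its part in translating Hox mRNAs, fell most among called members without overlap. It had 55.8, 62.2, 64.9 and 66.0 CPM in flox/flox, 101, 107, 114 and 140 in flox/+ and 82.4, 90.1, 101 and 108 in CreER-only organoids. The flox/flox libraries lay under all others, at -0.90 (SE 0.11, adjusted p = 1.3e-05 by edgeR) and -0.62 (SE 0.11, adjusted p = 0.00032). Rps29, of the small subunit, had 112, 127, 142 and 143 CPM in flox/flox, 186, 195, 204 and 268 in flox/+ and 136, 183, 187 and 206 in CreER-only organoids; it was lower than in flox/+ (-0.72, SE 0.14) and, with overlap, than in CreER-only (-0.45, SE 0.14, adjusted p = 0.023 and up to 0.07 without single libraries). Rpl22 fell in both (-0.38, SE 0.07, and -0.30, SE 0.07), from 262, 270, 277 and 306 or 242, 264, 268 and 286 to 194, 206, 222 and 240 CPM. Rplp0 moved the other way: with 2479, 2479, 2622 and 2630 CPM it lay above flox/+ (2280, 2299, 2315 and 2330; 0.14, SE 0.05, adjusted p = 0.039 and up to 0.088 without single libraries) and CreER-only organoids (1975, 2120, 2185 and 2231; 0.26, SE 0.05, adjusted p = 0.00083 by edgeR). Rpl8 (0.25, SE 0.05) was also higher than in CreER-only organoids. The nucleolar Rps19bp1, with no shared window, had 14.4, 15.2, 16.0 and 16.5 CPM in flox/flox against 21.7, 22.3, 22.6 and 24.5 in flox/+ (-0.56, SE 0.08) and 18.9, 19.8, 20.1 and 20.6 in CreER-only organoids (-0.36, SE 0.08).

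Loss of a single copy was not followed by a change called by edgeR in any member. Between flox/+ and CreER-only organoids 0 of 88 members were called by edgeR and 0.113% of all genes. At an unadjusted p under 0.05 there were 32 of the 88 members, and 1481 of all 14220 genes. DESeq2 called 6 members, all higher, and the share of all genes it called is not given. Without flox/+ replicate 1, 1 was called. The median was 0.13 and 72 of 77 structural members were positive.

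The fall in flox/flox organoids was larger for members with short coding sequences. Across the 77 structural members, log2 fold change against flox/+ and coding length had a Spearman correlation of 0.62, and 0.55 against CreER-only; these points share libraries and depth, so this is a description. The 25 members with a coding sequence under 400 bases had a median of -0.29 and the 22 with 600 bases or more of -0.02. Among the 12243 other protein-coding genes of that fit the correlation was 0.12, and the median of the 640 other genes under 400 bases was -0.19. Reads in the short members divided by reads in the long ones gave 0.290, 0.296, 0.300 and 0.300 in flox/flox, 0.342, 0.345, 0.359 and 0.380 in flox/+ and 0.309, 0.337, 0.342 and 0.347 in CreER-only organoids, so the flox/flox libraries lay under all 8 others. Between flox/+ and CreER-only organoids the correlation had the opposite sign (-0.50), and in the first organoid set it was 0.02, with ratios of 0.376, 0.377 and 0.391 with 4-OHT and 0.361, 0.373 and 0.395 with DMSO. Other comparisons had correlations too: -0.58 for 4-OHT against DMSO in flox/+ spheroids, where no gene was called, 0.41 for the same in flox/flox spheroids, 0.46 for heterozygous Vil1(CreER) crypts against villi, -0.42 for homozygous against heterozygous Vil1(CreER) crypts and -0.53 for the crypt minus villus difference in these mice. Libraries went through size selection, per the labels; whether fragment size moved with the groups was not tested.

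**Figure D3:**
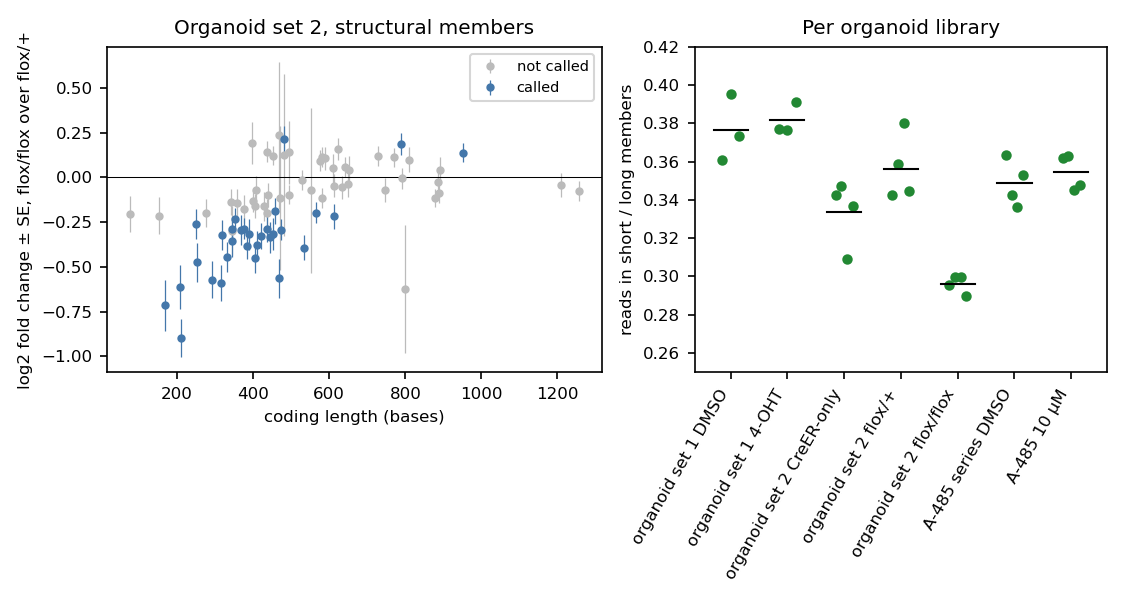
Left, log2 fold change with SE (vertical axis) of the 77 structural members between flox/flox and flox/+ organoids of the second set, against coding length in bases (horizontal axis); right, reads in members with under 400 coding bases divided by reads in those with 600 or more, for each organoid library (points; line, group mean; the axis does not start at 0). Short members lie lowest on the left, and the 4 flox/flox libraries of the second set lie lowest on the right, between 0.290 and 0.300.

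In fetal spheroids no member was called between any pair of groups by edgeR in the fits without lines as a block. The lines differed widely: members took 3.44, 7.25 and 8.01% (lowest, median, highest) of reads in flox/flox lines with DMSO, 3.29, 7.62 and 7.93% with 4-OHT, 4.73, 5.10, 6.42, 7.59 and 9.16% in flox/+ lines with DMSO and 4.72, 6.15, 7.65, 7.79 and 9.42% with 4-OHT. The lowest value under both treatments came from the same flox/flox line, replicate 6. With 4-OHT against DMSO in flox/flox lines, 0 of 88 members were called by edgeR (1 at an unadjusted p under 0.05), while 19.1% of all genes were; DESeq2 called 1, and with lines as a block 5 fell (17.1% of all genes fell in that fit). Without both libraries of replicate 6, 1 fell, and without its DMSO library alone 2 did. In flox/+ lines 0 members and 0% of all genes were called (0 members at an unadjusted p under 0.05). Only 15 of the 15032 genes in that fit had an unadjusted p under 0.05. It leaves out the pairing by line, though residuals of the same line correlated from 0.63 to 0.86. The 0 thus does not show that these mRNAs were unchanged in flox/+ lines. Between genotypes, 0 members were called with 4-OHT (10.5% of all genes; 1 member at an unadjusted p under 0.05, 1 by DESeq2) and with DMSO (0% of all genes; 1 member at an unadjusted p under 0.05). The 4-OHT effect differed between genotypes for 0 members (1.62% of all genes; 0 at an unadjusted p under 0.05); with lines as a block, 8 were lower (10.1% of all genes). Line prefixes S9484 and S9612 each occur in 1 genotype, so prefix and genotype cannot be told apart there.

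Ribosomal protein mRNAs were more often called higher than lower in fetal spheroids against adult organoids, while the shares of reads overlapped. Members took 4.72 to 9.42% of reads in flox/+ spheroids with 4-OHT and 4.89 to 5.78% in flox/+ organoids with 4-OHT. Between flox/+ cultures with 4-OHT, 34 of 88 members were higher in spheroids and 3 lower, against 25.1 and 22.8% of all genes, and 74 of 77 structural members had a positive fold change (median over members 0.51, all genes -0.01). Rpl7, of the large subunit, had 1706, 1741, 2325, 2611 and 3251 CPM in spheroids and 1189, 1309, 1344 and 1377 in organoids (0.79, SE 0.19, adjusted p = 0.0073 by edgeR). Rpl22 had 349, 439, 525, 543 and 600 against 262, 270, 277 and 306 CPM (0.77, SE 0.15, adjusted p = 0.0025). Rplp0 (0.68, SE 0.11) was also higher without overlap. Rps19bp1 was lower, with 10.9, 14.2, 14.8, 16.7 and 19.0 against 21.7 to 24.5 CPM (-0.64, SE 0.15, adjusted p = 0.0069). The other 2 that fell, Rpl24 and Rpl36al, had at most 1.73 CPM. Rpl22l1 was not called (-0.01, SE 0.27), and Rps27l, at 101, 111, 189, 266 and 294 against 103, 104, 113 and 117 CPM, overlapped and was not called (0.77, SE 0.31, adjusted p = 0.067). The count of members that rose was 69 without spheroid replicate 4, whose member share was 4.72%, 13 without organoid replicate 1, 18 without organoid replicate 2 or 4, 22 without organoid replicate 3, and 21 without spheroid replicate 2. The summed CPM of the stem cell markers was 159 to 6373 in these spheroids and 5425 to 7354 in organoids, with 1 of the 5 called lower. That of the cycling markers was 399 to 1007 and 1297 to 1544, with 3 of the 3 called lower. The mitochondrial share was 4.82 to 11.1% in these spheroids and 2.44 to 3.05% in organoids, and the summed CPM of 4 stromal markers 10.9 to 140 and 6.62 to 10.8, with 2 of 3 tested called higher and 1 of the 4 at 0 in all these organoids. Their part in the result was not tested.

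Ribosomal protein mRNA was lower with A-485 at every dose, and the share of reads fell with each step in dose. Members took 5.90, 6.23, 6.75 and 7.18% of reads with DMSO, 5.17, 5.51, 5.53 and 5.79% at 3 µM, 2.88, 3.52, 3.73 and 3.75% at 5 µM and 2.28, 2.42, 2.66 and 2.69% at 10 µM; no 2 neighbouring doses overlapped. At 3 µM 31 of 86 members fell (8.42% of all genes), at 5 µM 78 (25.1%) and at 10 µM 80 (32.6%), and none rose at any dose. The 3 comparisons share the DMSO libraries. Their medians were -0.38, -0.98 and -1.49, and in all 76 structural members tested the fold changes stood in the order of the doses. The result at 3 µM is the weakest: with lines as a block 18 fell (9.06% of all genes), 19 fell without DMSO replicate 1, 16 without DMSO replicate 4, 18 without 3 µM replicate 1, and 4 without line 1 at every dose. Without line 1, 75 and 80 members fell at 5 and 10 µM. Markers moved with the doses: from DMSO to 10 µM the summed CPM of 5 stem cell markers went from 6409 to 7621 down to 44.2 to 76.1, with 1 of the 5 at 0, that of 3 cycling markers from 1018 to 1086 down to 205 to 288, and that of 4 fetal-like markers from 148 to 207 up to 823 to 1034. That of 5 enterocyte markers went from 4360 to 8902 down to 43.9 to 229 and that of 3 Paneth cell markers from 1925 to 3180 down to 19.7 to 36.9, with all 5 and all 3 called lower. Their part in the result was not tested.

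Rplp0 had 3390, 3609, 3870 and 3997 CPM with DMSO, 2840, 2956, 3001 and 3140 at 3 µM, 1723, 2352, 2395 and 2451 at 5 µM and 1407, 1690, 1775 and 1836 at 10 µM. No 2 groups overlapped except at 5 and 10 µM, and the fold changes were -0.32 (SE 0.11, not called), -0.74 and -1.15 (SE 0.11 each). Rpl35, at the tunnel exit of the large subunit, fell at all doses (log2 fold changes -0.60, -1.17 and -1.83), from 308, 344, 351 and 374 CPM with DMSO to 162, 216, 256 and 272 at 3 µM and 79.6, 84.3, 110 and 112 at 10 µM. Rpl22 was not called at 3 µM (-0.27, SE 0.14) and fell at 5 and 10 µM (-1.02 and -1.64, SE 0.14 each), to 128, 134, 156 and 164 CPM from 374, 432, 486 and 518. Rpl17 had the largest fall among called structural members at 10 µM (-1.92, SE 0.31). Rps12-ps3, which fell by 2.09, shares all its windows with other genes.

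Rps27l (chr9:66946086-66949516, plus strand), whose human counterpart is known as a p53 target, was not called at any A-485 dose. It had 108, 114, 115 and 146 CPM with DMSO, 107, 120, 129 and 197 at 3 µM, 94.9, 115, 131 and 134 at 5 µM and 114, 117, 118 and 132 at 10 µM. All groups overlapped. The log2 fold changes were 0.20, -0.02 and -0.00 (SE 0.16 each), with an approximate 95% interval of -0.32 to 0.31 at 10 µM; the median over members was -1.49. Rps27 fell at 10 µM by 1.27 (SE 0.25), from 219, 243, 257 and 261 to 85.4, 103, 109 and 110 CPM. Rpl7l1, a nucleolar relative of Rpl7, fell at 5 and 10 µM (-0.45 and -0.34, SE 0.10 each), from 107, 120, 121 and 130 CPM with DMSO to 84.7, 96.0, 96.9 and 99.1 at 10 µM. Rps19bp1 was not called at any dose (-0.25, SE 0.23, at 10 µM). Rpl22l1 fell by 1.48 at 10 µM (SE 0.27), close to the members' median.

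**Figure D4:**
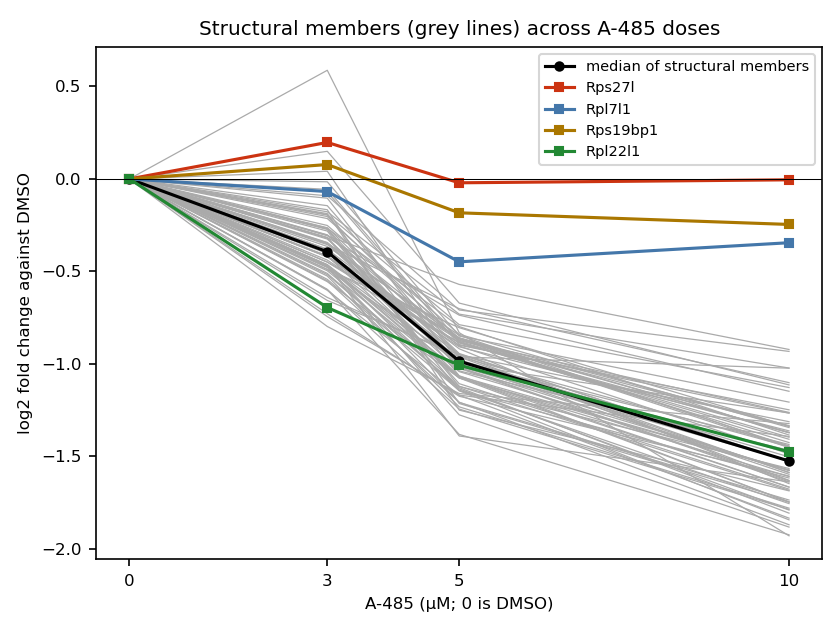
Log2 fold change against DMSO (vertical axis) at A-485 doses of 3, 5 and 10 µM (horizontal axis; 0 is DMSO, set to 0) for each structural member (grey lines), their median (black) and 4 other members (coloured). The structural members end between -1.93 and -0.92 at 10 µM, while Rps27l ends at -0.00.

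**Figure D5:**
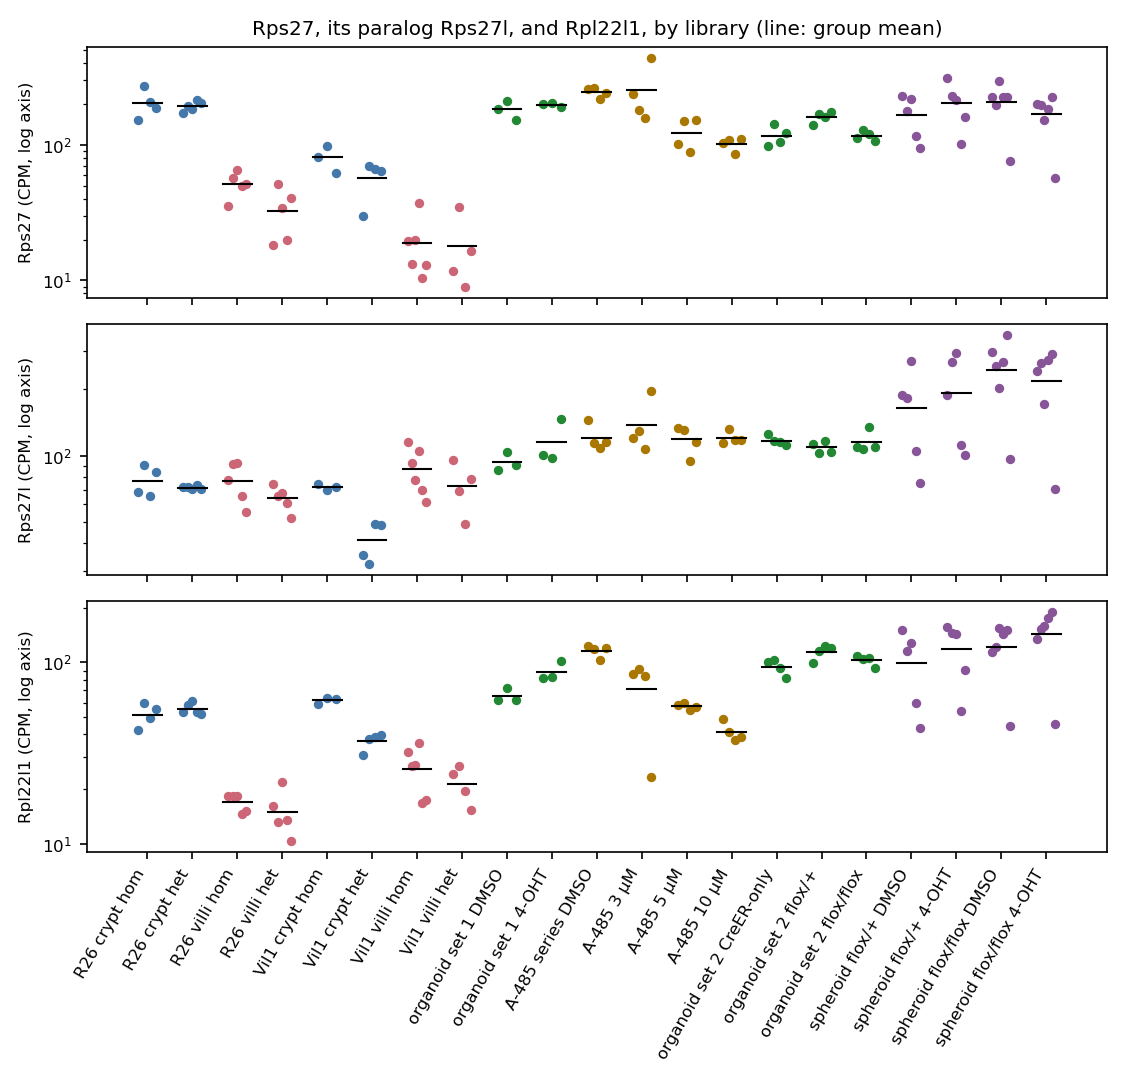
CPM (log axis) of Rps27 (top), Rps27l (middle) and Rpl22l1 (bottom) in each of the 92 libraries (points; line, group mean) by group (horizontal axis); levels are comparable within an experiment, not between them. Rps27 and Rpl22l1 are lower in villi than crypts and at 10 µM A-485 than with DMSO, while the means of Rps27l differ little along the doses.

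Other genes of the translation apparatus were taken from lists. Of the ribosomal proteins outside the naming rule, Rack1, of the small subunit, was 2.93 higher in Rosa26(CreER) crypts than in villi on the log2 scale (SE 0.19) and fell by 1.65 at 10 µM A-485. Fau, made as a ubiquitin-like fusion, was not called between these crypts and villi (0.06), was lower in Vil1(CreER) crypts than villi (-0.89) and fell by 1.07 at 10 µM. All 18 other mRNAs known to carry a TOP tract, such as the elongation factor gene Eef1a1, were higher in crypts than villi with both drivers, and all 18 fell at 10 µM A-485 (median -0.97). In Rosa26(CreER) homozygous crypts 7 of the 18 fell and none rose, against 11.6% of all genes that fell. Of 40 tested ribosome biogenesis genes, 39 were higher in crypts than villi with both drivers, and 37 fell and 1 rose at 10 µM A-485; nucleolin (Ncl) and fibrillarin (Fbl), which methylates ribosomal RNA, were among those that fell (-1.99 and -2.17).

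The biogenesis genes did not always move with the ribosomal protein genes. In Vil1(CreER) homozygous animals 36 of 40 rose in crypts (median 0.48) and 27 of 40 in villi (median 0.80), against 11.6 and 20.9% of all genes that rose; 6 of 85 members rose in these villi. In Rosa26(CreER) villi 14 rose and 1 fell (median 0.41), against 15% of all genes that rose. In fetal spheroids against adult organoids none rose and 25 of 40 fell (median -0.54; 22.8% of all genes fell), among them Ncl (-1.13) and Fbl (-0.66), while 34 members rose. Among 12 regulators, Myc was 5.49 higher in Rosa26(CreER) crypts than villi on the log2 scale, fell across the A-485 doses (-0.37, -1.03 and -1.18), rose by 1.94 in Vil1(CreER) homozygous villi and was 1.24 higher in spheroids than organoids.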

How the data were processed

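RNA from intestinal crypts, villi, organoids and fetal spheroids was poly(A)-selected, fragmented and made into directional (dUTP) libraries, per the labels. Each of the 4 tables holds raw counts as deposited by the authors. HISAT2 2.0.5 and the builds GRCm38 and mm10 are named in the submitters' processing notes. The counting program, annotation, use of strand and treatment of multi-mapped reads are not given in the sources used here, so members sharing sequence with other genes are uncertain. All 94 members were in GENCODE vM21, with an identical start for 90 and an identical end for 92.

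The members, gene lists and tests were chosen with earlier results of these data known. Whole tables were fitted in edgeR 4.0.16 under R 4.3.3 (filterByExpr, TMM, robust quasi-likelihood F-test, Benjamini-Hochberg adjustment, called at adjusted p under 0.05) for 18 comparisons and 3 differences of effects, and the code was tested on simulated data. A fit used the 2 groups compared, except that all groups entered for A-485, for spheroids and for the second set of organoids. Named genes were the 2 largest rises and 2 largest falls per comparison among called members whose mean log2 CPM was 3 or more and that had no overlap between groups, plus chosen paralogs, P stalk and other members, of which a selection is given; others named were chosen after their values were seen. One gene that this rule picks is not reported here. Alternatives were DESeq2 1.42.0, other scalings, no filter beyond 1 read, pseudogene counts added, a replicate block, covariates and left-out libraries. Same-numbered libraries are the same line in the A-485 series, the first organoid set and within spheroid genotypes, where their residuals correlated from 0.056 to 0.32, 0.32 to 0.50 and 0.38 to 0.86; crypt and villus libraries share animal numbers. No 2 libraries of a group held identical counts (smallest chi-square per degree of freedom 5.84). P-values measure the spread between these libraries, which may in part be technical. Start sequences and promoters (250 bases before to 50 after the start) are RefSeq's.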

Additional observations from a re-analysis of the deposited data

Results flagged for a closer look

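The CPM of 6 members and the members' share of reads were examined in each group of 4 or more libraries. Of these 126 sets, 8 held a library far from the others, all of them for CPM, where chance gives about 1 in 20. With A-485, Rpl22l1 stood at 23.2 CPM and Rpl17 at 372 CPM in replicate 4 at 3 µM, and Rplp0 at 1723 CPM in replicate 4 at 5 µM. Rps27 stood at 29.8 CPM in heterozygous Vil1(CreER) crypt replicate 1 and at 37.4 CPM in homozygous villus replicate 4. Rps27l stood at 135 CPM in flox/flox organoid replicate 3 of the second set. In flox/flox spheroid replicate 6, Rpl22l1 stood at 44.8 CPM with DMSO and Rpl38 at 35.2 CPM with 4-OHT.

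The effect of deletion differed between crypts and villi by -0.82 on the log2 scale for Rps2 in Rosa26(CreER) mice (adjusted p = 0.046 by edgeR) and by 0.97 for Rpl38 in Vil1(CreER) mice (adjusted p = 0.024).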

How the results depend on the processing

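Calls in crypts against villi (86 to 87 members in Rosa26(CreER) and 81 to 82 in Vil1(CreER) mice without single libraries) and with A-485 at 5 and 10 µM (75 to 78 and 79 to 80) moved least. For fits without single libraries, the share of all genes called is not given. Without single libraries the other counts ranged from 0 to 4 in Rosa26(CreER) crypts, 0 to 18 in villi, 16 to 41 in Vil1(CreER) crypts, 4 to 14 in villi, 1 to 6 in the first organoid set, 16 to 41 with A-485 at 3 µM, 29 to 41 and 12 to 24 for flox/flox organoids against flox/+ and CreER-only, 0 to 1 for flox/+ against CreER-only, 16 to 72 for spheroids against organoids, 0 to 2 for 4-OHT in flox/flox spheroids, and 0 to 13 and 0 to 2 for the crypt minus villus difference in Rosa26(CreER) and Vil1(CreER) mice.

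In Rosa26(CreER) crypts, 0 members were called with no low-count filter, 5 by DESeq2, 4 with animal number series and 17 with Y-linked transcripts as covariate. In the villi there were 2 calls with DESeq2 size factors, 2 with TMM without members and mitochondrial genes, 3 with no filter, 0 with pseudogene counts added, 4 by DESeq2 and 0 with the Y-linked covariate. No filter gave 5 calls in Vil1(CreER) villi, 3 in the first organoid set and 1 for flox/+ against CreER-only organoids; DESeq2 size factors gave 3 in the first organoid set. DESeq2 called 6 for flox/+ against CreER-only organoids, 1 for 4-OHT in flox/flox spheroids and 1 between spheroid genotypes with 4-OHT. The Rosa26(CreER) crypt minus villus difference had 0 calls with TMM without members and mitochondrial genes and 0 with no filter. Apart from the Y-linked covariate, the share of all genes called in these alternative fits is not given. A change in member calls thus cannot be told from a change over all genes. The cause of these changes was not tested.

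With the replicate block, paired by line or animal, 18 members were called with A-485 at 3 µM, 5 for 4-OHT in flox/flox spheroids, 8 for the difference of 4-OHT effects, and 0 and 2 for the crypt minus villus differences in Rosa26(CreER) and Vil1(CreER) mice; it moved no other paired count by over 1.5 times. Where libraries share only a number, the block gave 0 in Rosa26(CreER) crypts, 4 in villi, 26 in Vil1(CreER) villi, 12 for flox/flox and 1 for flox/+ organoids against CreER-only. For the latter fits, too, the share of all genes called is not given.

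Alternatives chosen after seeing the data left out A-485 line 1 (4 calls at 3 µM) or spheroid flox/flox replicate 6 (1 call). Another left out members with 50 percent or more shared windows, which leaves 45 structural members besides those of other roles. Its counts have this smaller base and are not to be set against those of all members. It gave 25 calls in Vil1(CreER) crypts, 1 in villi, 48 and 48 for crypts against villi and 3 in the first organoid set. There were 19 and 14 for flox/flox organoids against flox/+ and CreER-only, and 18 for spheroids against organoids. The Rosa26(CreER) crypt minus villus difference had 0, and A-485 at 3, 5 and 10 µM had 20, 46 and 47. Shares of all genes called are not given for these alternatives.

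Of 1024 values of 67 named fold changes under alternatives, 873 kept direction and side of the threshold, 120 lost the call, 9 gained it and 22 changed sign. Of the called ones only Rps10 in Vil1(CreER) villi changed sign, to -0.0807 with pseudogene counts added. The uncalled ones lay near 0: Rpl22l1 in spheroids against organoids was 0.014 with DESeq2 size factors, 0.035 with TMM without members and mitochondrial genes, 0.014 by DESeq2, and -0.12 to 0.18 without single libraries; Rpl22 in Vil1(CreER) crypts was -0.030 to 0.073 without single libraries. Rps27l with A-485 at 10 µM was 0.012 with the block, 0.0044 with only the 2 groups, 0.12 without line 1 and -0.053 to 0.095 without single libraries; at 5 µM it was 0.00067 with only the 2 groups, 0.018 without line 1 and -0.0835 to 0.073 without single libraries, and at 3 µM -0.019 to 0.30.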
